A study of Mus musculus with 4 samples.

Results

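Cells of the neonatal mouse oviduct and uterus that carried the gate gene Pdgfra and the transcripts of the G2/M phase of the cell cycle were described across 4 single-cell RNA libraries. The cells were selected on their own measured counts. A barcode entered when it held at least 500 genes and at most 15% mitochondrial UMIs (unique molecular identifiers, 1 per captured RNA molecule), at least 1 UMI of Pdgfra, 0 UMIs of Myh11, Epcam, Pecam1, Upk3b and Rgs5, and at least 6 of the 9 genes Cenpf, Cenpa, Hmmr, Ccnb1, Aspm, Cenpe, Cdc20, Ube2c and Ccnb2, with these 9 genes making up at least 0.1% of its UMIs. This left 817 G2/M cells among 8267 cells of the Pdgfra gate, out of 21326 barcodes past the filters and 26619 called barcodes. The oviduct libraries gave 284 and 183 of them and the uterine libraries 164 and 186. A further 1344 cells met the G2/M part of the rule but lay outside the gate. The remaining 7450 gate cells are called the other gate cells below.

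All mice were untreated wild-type CD1 neonates at postnatal day 3. Oviducts and uteri came from the same neonates, in pools of 3 and of 4 animals, and each organ has 2 libraries, numbered replicate 1 and replicate 2. The labels call the cells mesenchymal and epithelial and record no sort. Enzymes (a collagenase, a dispase and DNase I) freed the cells from the tissues, and cells of the animals in a pool cannot be told apart. The libraries held 61117726 to 114419939 UMIs. The G2/M cells supplied 5309154 and 2937336 of them (oviduct) and 2953849 and 3896857 (uterus). Any pair of libraries shared 8 to 15 cell barcodes.

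Between DNA replication and cell division a cell passes through G2 and mitosis. Cyclin B, encoded by Ccnb1 and Ccnb2, activates the kinase Cdk1 and drives entry into mitosis, kinetochore proteins such as Cenpe and Cenpf tie chromosomes to the spindle, and the anaphase-promoting complex with its activator Cdc20 and its ubiquitin-conjugating enzyme Ube2c then destroys cyclin B. Transcripts of these genes accumulate late in the cycle, and their promoters are known for CCAAT boxes, bound by the factor NF-Y, and for a cell cycle homology region (CHR), bound by complexes that hold MuvB proteins with B-Myb and FoxM1 or with p130 and E2F4. Pdgfra encodes a platelet-derived growth factor receptor carried by the fibroblast-like stroma under the Müllerian duct epithelium.

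Promoters of 5 rule genes are shown, because the 9 rule genes define the cells: Cenpf is a kinetochore gene, Hmmr encodes a spindle-associated protein and holds 5 CCAAT boxes, Ccnb2 holds 2 CHR matches, Cdc20 carries its CHR between 2 CCAAT boxes, and Ccnb1 lacks the CHR letters. The sequences are those of RefSeq on GRCm38.p6, the same genome version as the mm10 of the labels, from 250 bases before to 50 bases after the annotated start site, written along the gene's strand. Capitals mark CCAAT or its reverse complement ATTGG, and the CHR letters TTTGAA or their reverse complement TTCAAA.
Cenpf: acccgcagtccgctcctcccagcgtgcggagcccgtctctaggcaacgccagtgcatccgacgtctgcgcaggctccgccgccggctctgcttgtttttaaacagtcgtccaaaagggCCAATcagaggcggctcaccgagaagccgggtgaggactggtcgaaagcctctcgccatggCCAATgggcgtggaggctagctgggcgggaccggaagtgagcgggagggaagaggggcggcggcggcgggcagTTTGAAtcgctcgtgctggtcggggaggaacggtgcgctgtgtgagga
Hmmr: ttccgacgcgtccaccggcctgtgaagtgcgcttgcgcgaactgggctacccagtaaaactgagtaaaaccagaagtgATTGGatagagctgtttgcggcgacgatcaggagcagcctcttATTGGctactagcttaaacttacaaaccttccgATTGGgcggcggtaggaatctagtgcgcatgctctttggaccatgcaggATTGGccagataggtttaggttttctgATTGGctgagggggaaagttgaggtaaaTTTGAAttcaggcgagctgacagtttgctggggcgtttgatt
Ccnb2: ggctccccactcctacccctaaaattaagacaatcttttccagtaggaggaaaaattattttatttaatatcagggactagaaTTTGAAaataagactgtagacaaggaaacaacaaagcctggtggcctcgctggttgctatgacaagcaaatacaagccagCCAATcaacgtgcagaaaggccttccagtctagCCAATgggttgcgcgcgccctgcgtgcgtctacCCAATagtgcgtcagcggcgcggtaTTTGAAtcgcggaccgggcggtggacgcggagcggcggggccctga
Cdc20: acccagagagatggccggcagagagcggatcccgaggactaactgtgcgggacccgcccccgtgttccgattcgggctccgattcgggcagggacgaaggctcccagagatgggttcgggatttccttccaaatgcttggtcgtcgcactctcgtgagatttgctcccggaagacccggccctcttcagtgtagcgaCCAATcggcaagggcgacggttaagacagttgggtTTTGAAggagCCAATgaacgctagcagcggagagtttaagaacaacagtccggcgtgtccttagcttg
Ccnb1: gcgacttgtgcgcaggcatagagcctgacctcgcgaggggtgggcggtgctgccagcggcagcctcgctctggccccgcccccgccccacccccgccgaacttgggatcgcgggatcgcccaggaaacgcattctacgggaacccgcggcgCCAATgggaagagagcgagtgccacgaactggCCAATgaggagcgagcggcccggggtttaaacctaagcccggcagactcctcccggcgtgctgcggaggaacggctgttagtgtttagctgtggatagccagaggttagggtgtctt

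The windows are as follows. Cenpf lies at chr1:189688037-189688336 (minus strand), Hmmr lies at chr11:40733388-40733687 (minus strand), Ccnb2 lies at chr9:70421505-70421804 (minus strand), Cdc20 lies at chr4:118437294-118437593 (minus strand) and Ccnb1 lies at chr13:100786437-100786736 (minus strand). Motifs were searched on both strands as CCAAT and as TTTGAA or TTCGAA, and no CHR match overlapped a CCAAT match. All 9 rule genes had a promoter in the table, and all 9 held CCAAT, with 26 matches in total, against 37.4% of all 32851 promoters of that length. The CHR letters stood in 7 of the 9, with 8 matches, against 19.2% of all promoters of that length, and 7 of the 8 began within 30 bases of the start site. Ccnb1 and Cenpe held neither TTTGAA nor TTCGAA in this window, and no other CHR letters were searched. Counted by gene, the CHR letters stood in 21.7% of all genes of the table. Outside the rule, they stood in the promoters of 16 of 21 spindle and cytokinesis genes of 10 of 11 chromosome condensation genes, of 6 of 9 mitotic cyclins and kinases, of 9 of 14 kinetochore genes and of 5 of 13 checkpoint and anaphase-promoting complex genes. They stood in 5 of 15 extracellular matrix genes, 4 of 25 S phase genes and 2 of 14 immediate early genes. Pdgfra held the letters as well, at -39. These are matches of letters and describe the windows shown.

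**Figure D1:**
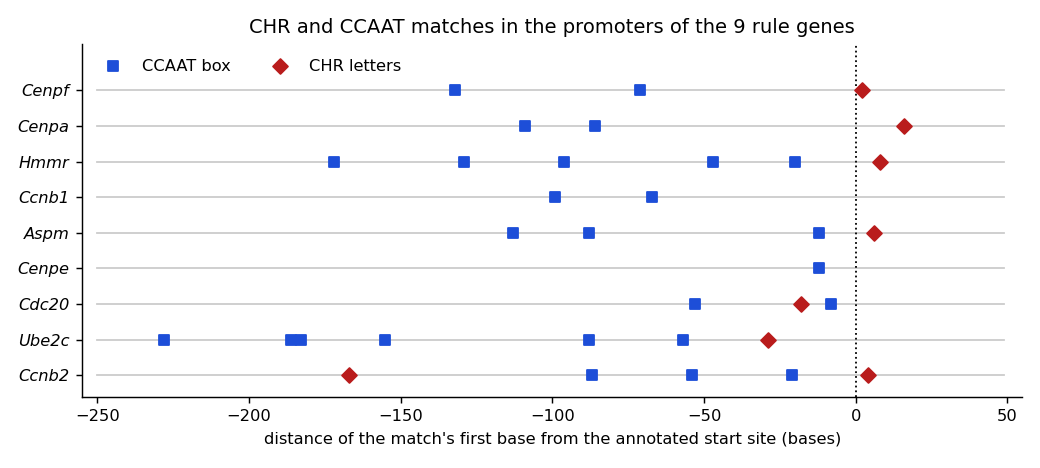
CHR matches (red diamonds) and CCAAT matches (blue squares) in the 300-base promoter windows of the 9 rule genes, by the distance in bases of the first base of each match from the annotated start site (dotted line). In 7 genes a CHR match lies within 30 bases of the start site, and Ccnb1 and Cenpe have no match to the letters searched, TTTGAA and TTCGAA.

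Markers of both kinds were present. Of the 817 cells, 507 (62.1%) held all 9 rule genes, 164 held 8, 99 held 7 and 47 held 6. The 8 stroma markers (Pdgfra, Pdgfrb, Col1a1, Col1a2, Col3a1, Dcn, Lum and Vim) were all present and summed to 8903 and 9206 counts per 1000000 UMIs (CPM) in the oviduct G2/M cells and 3644 and 3922 in the uterine ones, against 10037 and 10391 CPM (oviduct) and 4543 and 4277 CPM (uterus) in the other gate cells. Myh11, Epcam, Pecam1, Upk3b and Rgs5 were at 0 by the rule, and Higd1b and Sox10, markers of pericytes and glia that the rule did not use, were at 0 in every G2/M sum. The pericyte markers other than Rgs5 and Higd1b were present, with sums of 50.4 to 65.4 CPM against 51.0 to 61.9 CPM in the other gate cells. Mesothelial markers without Upk3b, Rspo1 among them, summed to 122 and 113 CPM (oviduct) and 221 and 191 CPM (uterus). In the other gate cells they summed to 186 and 188 CPM (oviduct) and 225 and 198 CPM (uterus). The remaining epithelial markers summed to 26.6 to 45.2 CPM, those of blood endothelium to 13.9 to 21.4 CPM and those of glia and neurons to 4.09 to 8.47 CPM. Myeloid markers summed to 38.8 CPM in oviduct replicate 1 and 1.70 to 9.82 CPM in the other libraries. Pdgfra itself stood at 343 and 404 CPM (oviduct) and 219 and 191 CPM (uterus) in the G2/M cells, a description, since the gate used its counts. Smooth muscle markers were at 1235 to 1511 CPM without Myh11, most of it Acta2. Haemoglobin genes stood apart in 1 library: the G2/M cells of uterus replicate 2 held 25279 haemoglobin UMIs, of which 1 cell held 50.1%, and 2 cells held over 100 each. The level of haemoglobin or of myeloid transcripts in the cells, whichever was lower relative to barcodes of at most 100 UMIs, was 0.458 and 0.177% of the level in those barcodes for the oviduct G2/M cells and 1.56 and 0.832% for the uterine ones. These are estimates of the share of free RNA and no limits: the 0.177% rests on 1 myeloid UMI and the 0.832% on 5, and haemoglobin gave 1.16% for oviduct replicate 2.

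G2/M cells carried more UMIs than the other gate cells. Median depth was 17192.5 and 15375 UMIs for the oviduct and 17380.5 and 22136.5 UMIs for the uterus. The other gate cells had medians of 12300 and 10857 UMIs (oviduct) and of 13781 and 14710 UMIs (uterus). The ratio of the medians was 1.39 ± 0.101 (SD, n = 4 libraries). Detection of 6 genes favours deep cells, so that depth belongs to the rule and the ratio is a description. A doublet score (Scrublet) marked 12.3% and 7.65% of the oviduct G2/M cells and 6.71% and 3.76% of the uterine ones, against 4.24 to 5.19% of the other gate cells. The removal of these barcodes is among the alternatives given below. Just inside the limits, members with exactly 6 rule genes had these genes at a median of 0.163 to 0.190% of their UMIs, and 4 to 15 members a library lay below 0.12%. Just outside, 5 to 10 cells a library met the 0.1% with 5 genes, at a median of 0.136 to 0.219%, and 25 to 47 cells a library held 6 genes but missed the 0.1%, with median depths of 19125 to 22973 UMIs.

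The 9 rule genes were high in the G2/M cells of all 4 libraries. These values chose the cells and are given without a test, as CPM of the summed counts of each group. Cenpf, a large kinetochore and nuclear matrix protein, stood at 979 and 1019.6 CPM in the oviduct G2/M cells and 923 and 754 CPM in the uterine ones, and at 13.4 and 13.3 CPM (oviduct) and 14.8 and 18.4 CPM (uterus) in the other gate cells. Ube2c, the ubiquitin-conjugating enzyme of the anaphase-promoting complex, had 864 and 815 CPM in the oviduct G2/M cells and 815 and 759 CPM in the uterine ones, against 12.5 and 14.6 CPM (oviduct) and 16 and 23.0 CPM (uterus) in the rest of the gate. In the G2/M cells Cenpf was lowest in uterus replicate 2, whose other gate cells had the highest level, and the same held for Ube2c. Ccnb1 had 242 and 269 CPM (oviduct) and 231 and 216 CPM (uterus), against 2.93 and 2.62 CPM (oviduct) and 3.65 and 5.51 CPM (uterus) in the other cells. Cenpf was detected in 99.3 to 99.5% of the G2/M cells, with a median of 8 to 10.5 UMIs a cell, and Ccnb1 and Aspm in 82.0 to 91.5% and 83.5 to 88.4%, with a median of 3 UMIs. In the other gate cells of oviduct replicate 1 Cenpf was seen in 9.35% and in those of uterus replicate 2 in 13.8%. Cells of at least 10000 UMIs were also thinned to 10000 and the rule applied again, which left out 770, 842, 332 and 316 shallower gate cells. The detection of Cenpf was then 96.1 to 98.2% in G2/M cells and 8.01 to 10.1% in the others.

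**Figure D2:**
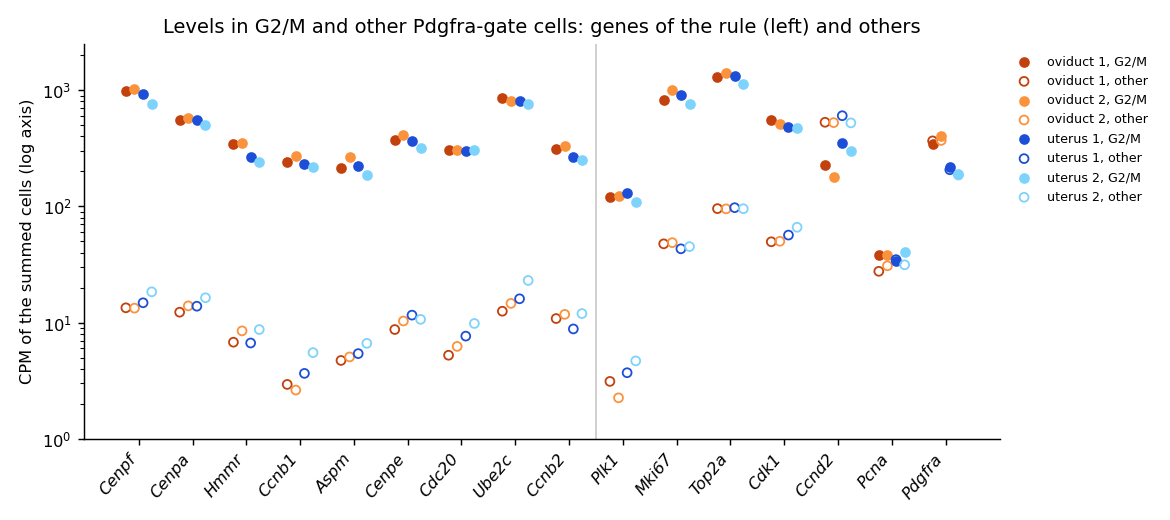
Level of the 9 rule genes (left of the line) and of 7 other genes in CPM on a log axis, with 1 point per library, filled for G2/M cells and open for other gate cells. Rule genes, Plk1, Mki67, Top2a and Cdk1 stand apart between the groups, Ccnd2 is lower in the G2/M cells of all 4 libraries, and Pcna and Pdgfra lie close together.

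Across the genome the G2/M cells carried 441 of 22376 detected genes (1.97%) at 2-fold or more above the other gate cells in all 4 libraries, and 34 (0.152%) at 2-fold or more below. Ratios are given as the log2 of CPM with a pseudocount of 1, as mean ± SD over the 4 libraries, and since the cells were selected on the same counts none of them is tested. Of the 441 genes, 104 stood on the cell cycle lists used here and 337 did not. The median of all genes was -0.021 on this scale.

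Much of the mitotic machinery outside the rule followed it. All 15 mitotic cyclins and kinases, all 18 kinetochore and centromere genes, all 24 genes of spindle, motors and cytokinesis and all 14 chromosome condensation genes were past 2-fold in the 4 libraries, with medians of 3.68, 3.73, 4.28 and 3.096. Plk1, the polo-like kinase of centrosomes and kinetochores, was at 121 and 123 CPM in the oviduct G2/M cells and 129 and 109.8 CPM in the uterine ones, with 3.12 and 2.25 CPM (oviduct) and 3.70 and 4.68 CPM (uterus) in the other gate cells, a log2 ratio of 4.80 ± 0.40. Kif2c, a kinesin that takes microtubules apart at centromeres, had a ratio of 4.80 ± 0.22, and Bub1b, of the spindle checkpoint, 4.45 ± 0.14. Aurka, a centrosomal kinase, had 4.56 ± 0.20, the cytokinesis kinesin Kif20a 4.55 ± 0.31 and the kinetochore scaffold Knl1 4.31 ± 0.12. Mki67, which coats mitotic chromosomes, was at 832 and 1012 CPM (oviduct) and 915 and 764 CPM (uterus), with a ratio of 4.22 ± 0.17. Top2a, the topoisomerase that untangles chromosomes, had a ratio of 3.74 ± 0.13 and Cdk1 one of 3.17 ± 0.29. Outside these lists, Cdkn3, a phosphatase of Cdk kinases, had a ratio of 4.75 ± 0.31, and Pimreg, a mitotic regulator, 4.69 ± 0.19.

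Regulators were less uniform, and their counts are read against the 1.97% of all genes past 2-fold above and the 0.152% below. Of 14 checkpoint and anaphase-promoting complex genes 8 were past 2-fold, among them Pttg1, the securin that guards separase, at 4.26 ± 0.22 and Espl1, separase itself, at 3.77 ± 0.18, while the core subunits Cdc16 and Anapc5 stood at -0.041 ± 0.092 and 0.49 ± 0.073. Of 14 cell cycle transcription factors 6 were past 2-fold. Foxm1, an activator of late cell cycle genes, was at 3.39 ± 0.19, the repressors E2f8 and E2f7 at 2.74 ± 0.35 and 2.29 ± 0.30, and the MuvB subunit Lin9 at 1.22 ± 0.13, while E2f1 stood at -0.36 ± 0.15. Of 33 S phase genes 7 were past 2-fold above and 1 below. Rrm1, Rrm2 (both of ribonucleotide reductase) and Clspn (a replication checkpoint protein) led with 1.97 ± 0.19, 1.72 ± 0.18 and 1.71 ± 0.15, the replication clamp Pcna stood at 0.27 ± 0.21 and the helicase subunit Mcm2 at -0.50 ± 0.23. Ung, the uracil-DNA glycosylase, was at 3.01 and 1.70 CPM (oviduct) and 3.05 and 3.08 CPM (uterus) in G2/M cells against 14.9 and 14.8 CPM (oviduct) and 27.7 and 27.0 CPM (uterus), a ratio of -2.53 ± 0.39. Among 15 G1 cyclins and cell cycle inhibitors, Cdkn2c (an inhibitor of Cdk4 and Cdk6), Gmnn (geminin, which blocks re-replication) and Rbl1 (a pocket protein) were past 2-fold above, at 3.85 ± 0.10, 1.74 ± 0.17 and 1.62 ± 0.38, while the G1 cyclins Ccnd1 and Ccnd2 stood at -0.86 ± 0.19 and -1.08 ± 0.36.

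**Figure D3:**
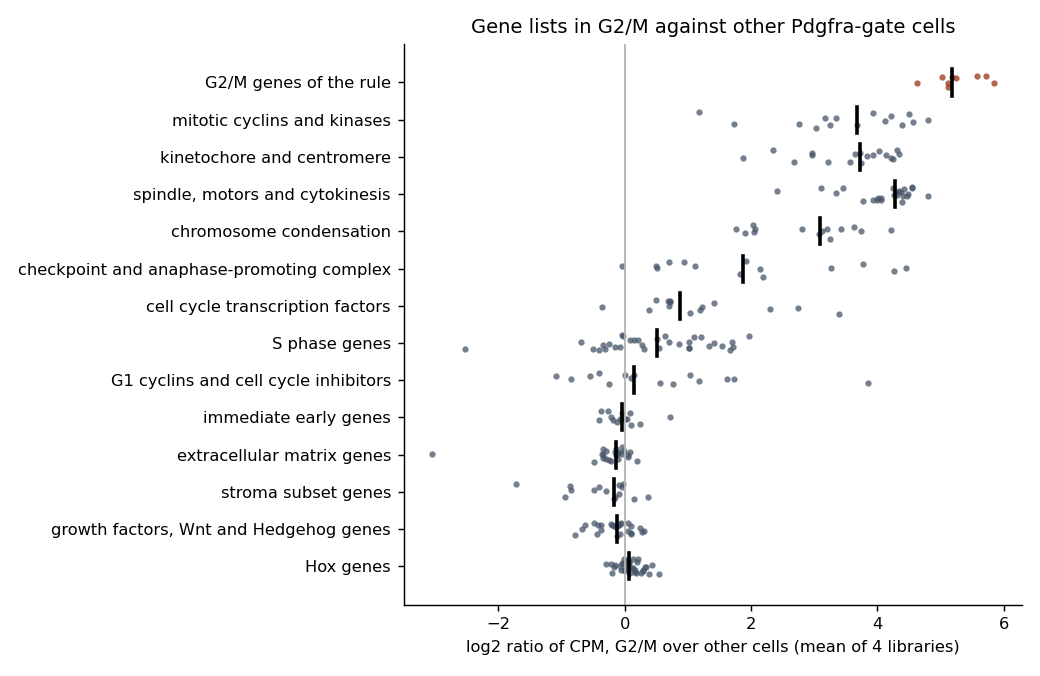
Log2 ratio of CPM in G2/M over other gate cells, 1 point per gene (mean of 4 libraries, pseudocount of 1 CPM), by gene list, with a bar at the list's median. The 9 rule genes (brown) and the mitotic lists lie to the right, from a median of 5.18 for the rule genes to 3.096 for chromosome condensation, while the matrix, stroma, growth factor, immediate early and Hox lists have medians between -0.18 and 0.07.

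Few genes were lower by 2-fold in all 4 libraries, and 14 of the 34 reached 20 CPM in the other gate cells. With a pseudocount of 5 CPM the count of lower genes fell from 34 to 9. Ogn (osteoglycin, a small matrix proteoglycan) had 5.65 and 0.681 CPM in the oviduct G2/M cells and 1.69 and 4.62 CPM in the uterine ones, against 25.7 and 28.3 CPM (oviduct) and 32.2 and 29.8 CPM (uterus), with a ratio of -3.05 ± 0.99. Aldoa, the glycolytic aldolase, had 46.0 and 34.4 CPM (oviduct) and 47.4 and 66.2 CPM (uterus) against 185 and 175 CPM (oviduct) and 185 and 199.8 CPM (uterus), a ratio of -1.96 ± 0.30. Rspo1, a secreted Wnt agonist, had 18.8 and 16.7 CPM (oviduct) and 10.2 and 11.5 CPM (uterus) against 80.8 and 70.0 CPM (oviduct) and 39.7 and 34.7 CPM (uterus), a ratio of -1.86 ± 0.24. Rspo1 is also on the list of mesothelial markers used here. For these 3 genes no library of G2/M cells reached the level of any library of the other cells. The remaining ones named by size were Jph4 (-1.64 ± 0.12), Col27a1 (-1.45 ± 0.37), Lbhd2 (-1.33 ± 0.28), Tcea3 (-1.31 ± 0.18), Fkbp11 (-1.27 ± 0.18), Aprt (-1.26 ± 0.19), Mxd4 (-1.23 ± 0.27) and Fam69b (-1.22 ± 0.17). Of 24 extracellular matrix genes 1 (Ogn) was past 2-fold and 12 were below 0 in all 4 libraries, against 4461 of the 22376 genes, with a list median of -0.13. None of the 16 immediate early genes, the 15 stroma subset genes and the 26 growth factor, Wnt and Hedgehog genes was past 2-fold. This is near the share of all genes, of which 1.97% were past 2-fold above and 0.152% below. Igf1, a growth factor, stood at -0.62 ± 0.21, and the oestrogen receptor Esr1 at -0.18 ± 0.066.

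How large a part of the stroma was in G2/M was compared between the organs with the library as the unit. G2/M cells made up 9.78% of the gate in oviduct replicate 1 (284 of 2905; 95% exact binomial interval 8.72 to 10.9%) and 8.79% in replicate 2 (183 of 2082; 7.61 to 10.1%). In the uterus they made up 10.1% (164 of 1627; 8.66 to 11.6%) and 11.3% (186 of 1653; 9.77 to 12.9%). The intervals cover counting error only. The means were 9.28% ± 0.698 and 10.7% ± 0.829 (SD, n = 2 libraries), a difference of -1.38 percentage points, and the organs did not overlap. An exact permutation test gave p = 0.33, 2-sided, the smallest that 2 against 2 libraries allow. With every cell thinned to 5000 UMIs the shares were 8.54 and 7.35% (oviduct) and 8.43 and 9.56% (uterus), and the organs overlapped. The rule was applied again after thinning. It left out 167, 175, 54 and 76 shallower gate cells, and the unthinned shares of the cells kept were 10.2, 9.23, 10.1 and 11.5%. Among cells of at least 10000 UMIs, a limit chosen after the data had been seen, the difference was 0.0151 percentage points.

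**Figure D4:**
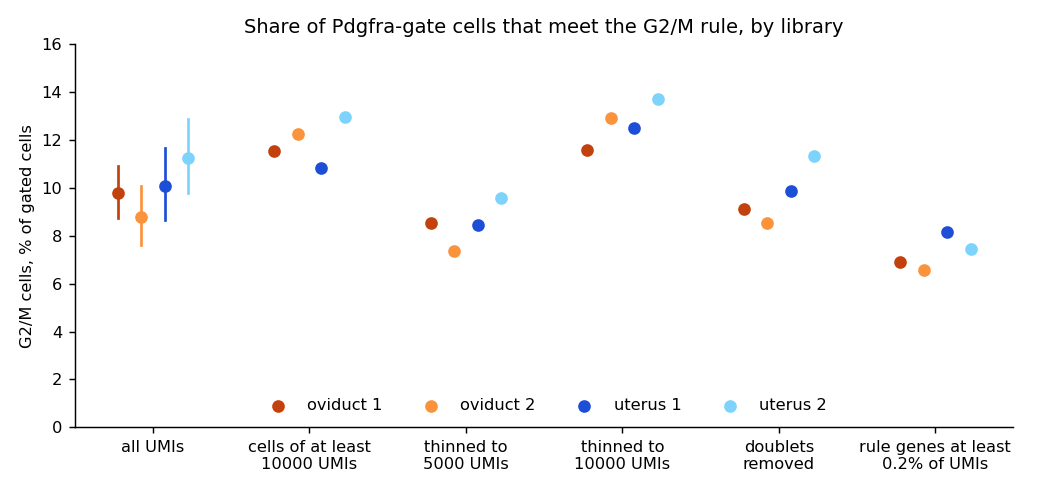
Share of Pdgfra-gate cells that met the G2/M rule, in %, for the 4 libraries with all UMIs (lines are 95% exact binomial intervals) and under 5 other settings. The uterine libraries lie above the oviduct libraries with all UMIs, with doublets removed and at 0.2%, and the organs overlap in the other 3 settings.

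Organ differences within the G2/M cells were tested on counts summed per library with edgeR's quasi-likelihood test, coded as oviduct minus uterus, with Benjamini-Hochberg adjusted p-values over all genes tested. Log2 fold changes of this test and of the interaction test below are given ± SE, derived from the fold change and its F statistic. They are not an SD over libraries. The organ was no part of the rule, but the rule depends on depth, which differed between the libraries. The rule genes made up a median of 0.346 and 0.369% of UMIs in oviduct G2/M cells and 0.331 and 0.297% in uterine ones. Of 11250 genes tested 2460 (21.9%) were called at an adjusted p under 0.05, of which 1418 (12.6%) had more counts in the oviduct and 1042 (9.26%) in uterine cells. In the other gate cells 5714 of 14520 genes (39.4%) were called, from sums of more cells. DESeq2 called 1192 genes in the G2/M cells.

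Organ differences among mitotic genes in the G2/M cells were read against the 21.9% of all genes called. The 9 rule genes chose the cells, so that their levels are given for the organs without a test. Hmmr was at 348 and 349 CPM (oviduct) and 267 and 241 CPM (uterus) and Ccnb2 at 315 and 331 CPM (oviduct) and 267 and 251 CPM (uterus). Cdc20 was at 304 and 308 CPM (oviduct) and 299 and 305 CPM (uterus). Among 24 spindle and cytokinesis genes 5 were called, all higher in the oviduct, a share near that of all genes, including Prc1, which bundles the central spindle, at 685 and 694 against 495 and 449 CPM (0.52 ± 0.095, adjusted p = 0.000900), and Cep55, of the midbody, at 53.5 and 66.7 against 38.3 and 36.4 CPM (0.64 ± 0.14, adjusted p = 0.00352). Of the 18 kinetochore genes 1 was called, Cenpw, at 241 and 217 against 147 and 153 CPM (0.58 ± 0.11, adjusted p = 0.000918). The 14 condensation genes had log2 fold changes from -0.13 (Ncaph) to 0.21 (Smc2), with adjusted p-values of 0.129 and above. Of 14 checkpoint and anaphase-promoting complex genes 3 were called, all higher in the oviduct, including Mad2l1, at 198 and 240.0 against 129 and 142 CPM (0.66 ± 0.12, adjusted p = 0.000742). Of 15 mitotic cyclins and kinases 2 were called toward the oviduct and 1, Cdc25b, toward the uterus (-0.38), a call lost under 7 of 12 alternatives. Both shares are near that of all genes. In the other gate cells, where 39.4% of all genes were called, Mad2l1 (0.77), Cenpw (0.43) and Prc1 (0.27) were also called toward the oviduct, and Cep55 (0.15) was not called.

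Most inhibitors and cyclins of the G1 phase differed between the organs in the G2/M cells. Of 15 such genes 7 were called toward the oviduct and 4 toward the uterus, against 12.6% and 9.26% of all genes. The other gate cells had a like pattern, with 6 of 14 tested called toward the oviduct and 4 toward the uterus. There 39.4% of all genes were called. Cdkn2c, an inhibitor of Cdk4 and Cdk6, was at 165 and 161 CPM in the oviduct G2/M cells and 41.6 and 46.7 CPM in the uterine ones, and at 9.89 and 9.47 CPM (oviduct) and 2.19 and 2.46 CPM (uterus) in the other gate cells. It was thus high in G2/M cells of both organs and higher in the oviduct in both groups, with log2 fold changes of 1.85 ± 0.12 (adjusted p = 2.32e-08) and 2.01 ± 0.16 (adjusted p = 4.76e-06). Cdkn1a, the inhibitor p21, was at 87.4 and 62.0 against 12.2 and 12.3 CPM (2.60 ± 0.19, adjusted p = 9.22e-08). Ccnd1 was at 21.3 and 15.3 against 68.7 and 79.0 CPM (-2.00 ± 0.16, adjusted p = 2.52e-07) and Cdk6, its kinase partner, at 15.3 and 12.6 against 36.9 and 25.7 CPM (-1.15 ± 0.21, adjusted p = 0.000795). Cdkn1a, Ccnd1 and Cdk6 were called the same way in the other gate cells, at 3.17, -1.91 and -0.89. Of 33 S phase genes 5 were called higher in the uterus and 1 in the oviduct in the G2/M cells, a share below the 21.9% of all genes called. In the other gate cells, where 39.4% of all genes were called, these counts were 23 and 1. The 1 oviduct gene in both was Ccne2, a cyclin of the start of S phase, at 21.5 and 22.5 against 8.12 and 8.47 CPM (1.36 ± 0.21, adjusted p = 0.000262).

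Hox genes, which mark position along the body and the Müllerian duct, differed between the organs in the G2/M cells. Of 38 Hox genes matched, 26 were tested in the G2/M cells, and 13 were called toward the oviduct and 9 toward the uterus, against 12.6% and 9.26% of all genes, with a median log2 fold change of 0.73 against 0.0021 for all genes. In the Hoxa cluster the called genes from Hoxa2 to Hoxa7 had higher oviduct levels and Hoxa10 and Hoxa11 higher uterine levels, with Hoxa9 between them close to 0 (0.00012 ± 0.13). Of the tested Hoxb genes, Hoxb4 was called toward the oviduct (1.16) and Hoxb9 toward the uterus (-2.54). The tested Hoxc genes from Hoxc4 to Hoxc10 had higher oviduct levels and Hoxc11 a higher uterine level. All 5 tested Hoxd genes, from Hoxd3 to Hoxd11, were higher in the uterus. Hoxc8 stood at 181 and 178 CPM (oviduct) and 5.76 and 5.65 CPM (uterus) (4.94 ± 0.16, adjusted p = 1.75e-11), and Hoxd11 at 13.4 and 10.6 CPM (oviduct) and 335 and 290.0 CPM (uterus) (-4.69 ± 0.14, adjusted p = 1.75e-11). Hoxa11 stood at 6.59 and 3.06 CPM (oviduct) and 129 and 113 CPM (uterus) (-4.53 ± 0.20, adjusted p = 3.15e-10). Hoxc11 had 2 UMIs in the oviduct G2/M cells and 68 in the uterine ones, a CPM ratio of 40.9 (95% exact interval 10.9 to 345, counting error only), and Hoxc5 had 78 and 3, a ratio of 21.6 (7.12 to 107). In the other gate cells, where 39.4% of all genes were called, 15 of 31 tested Hox genes were called toward the oviduct and 10 toward the uterus.

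**Figure D5:**
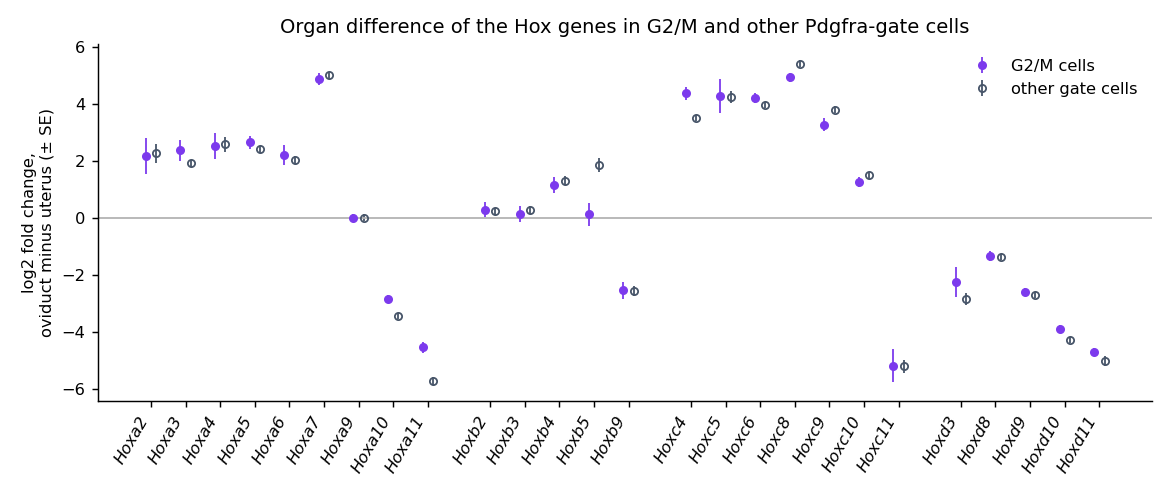
Log2 fold change, oviduct minus uterus, of the 26 tested Hox genes in G2/M cells (filled) and other gate cells (open), with SE, by cluster from a to d. Points above 0 are higher in the oviduct, and the sign turns between Hoxa7 and Hoxa10 and between Hoxc10 and Hoxc11, while the tested Hoxd genes lie below 0.

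The other large organ differences of the G2/M cells included secreted factors, receptors and enzymes. Aldh1a1, a retinaldehyde dehydrogenase, had 787 UMIs in the oviduct G2/M cells and 1 in the uterine ones, a CPM ratio of 654 (95% exact interval 117 to 25856, counting error only). Pthlh, a parathyroid hormone related peptide, had 376 and 1 UMIs, a ratio of 312 (55.7 to 12370). The activin antagonist Fst was at 101 and 145 CPM (oviduct) and 1.35 and 0 CPM (uterus). Wnt16, a Wnt ligand, was at 281 and 345 CPM (oviduct) and 15.6 and 11.3 CPM (uterus) (4.53 ± 0.16, adjusted p = 4.34e-11). Igf1 was at 349 and 378 CPM (oviduct) and 57.6 and 51.3 CPM (uterus) (2.71 ± 0.11, adjusted p = 2.69e-10). Higher in the uterus were Prlr, the prolactin receptor, at 3.58 and 2.72 CPM (oviduct) and 47.7 and 51.6 CPM (uterus) (-3.95 ± 0.22, adjusted p = 4.57e-09), Cpxm2, a carboxypeptidase-like protein, at 9.04 and 5.79 CPM (oviduct) and 113 and 100.1 CPM (uterus) (-3.79 ± 0.17), Plac8 at 16.6 and 21.1 CPM (oviduct) and 172 and 188 CPM (uterus) (-3.32 ± 0.14) and Serpinb1a, a protease inhibitor, at 8.85 and 13.6 CPM (oviduct) and 110.4 and 84.2 CPM (uterus) (-3.20 ± 0.18). Of 14 tested stroma subset genes 8 were called toward the oviduct and 6 toward the uterus, against 12.6% and 9.26% of all genes. Of 15 tested in the other gate cells, where 39.4% of all genes were called, 9 were called toward the oviduct and 6 toward the uterus. The neurofilament genes Nefm and Nefl spread widely within the oviduct: Nefm was at 64.8 and 19.7 CPM in the 2 oviduct libraries of G2/M cells and at 144 and 95.5 CPM in the other gate cells, and Nefl at 29.9 and 4.77 CPM and at 50.3 and 36.6 CPM. Nefl lost its call with DESeq2 and without oviduct replicate 1 (adjusted p of up to 0.0720).

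Matrix and immediate early genes were mostly higher in the oviduct. Of 24 extracellular matrix genes 18 were called higher in the oviduct G2/M cells and 1, Fn1 (fibronectin), in the uterine ones, against 12.6% and 9.26% of all genes, with a list median of 0.80. The other gate cells, where 39.4% of all genes were called, had 18 toward the oviduct and 2 toward the uterus, with a median of 0.81. Postn (periostin) was at 196 and 180.1 CPM (oviduct) and 23.7 and 34.6 CPM (uterus) (2.64 ± 0.15, adjusted p = 6.24e-09), the fibrillar collagen gene Col3a1 at 2257 and 2594 CPM (oviduct) and 846 and 865 CPM (uterus) (1.47 ± 0.090, adjusted p = 1.24e-08), and Fn1 at 231 and 228 CPM (oviduct) and 755 and 663 CPM (uterus) (-1.66 ± 0.10, adjusted p = 1.21e-08). Of 16 immediate early genes, which respond within minutes to stimuli that include tissue dissociation, 15 were called higher in oviduct cells, against 12.6% of all genes, with a median of 1.02. Nr4a1, a nuclear receptor of this group, was at 381 and 461 CPM (oviduct) and 59.9 and 75.2 CPM (uterus) (2.60 ± 0.13, adjusted p = 2.22e-09). The same list had 15 of 16 called in the other gate cells, where 39.4% of all genes were called, with a median of 1.26. Among nuclear hormone receptors, Nr3c1 (glucocorticoid) was called higher in the oviduct and Pgr (progesterone) was called toward the uterus, at 13.2 and 21.1 CPM (oviduct) and 26.1 and 26.9 CPM (uterus) (-0.72 ± 0.21, adjusted p = 0.0230). The call of Pgr was lost with DESeq2, with rule genes at 0.2% of UMIs, without oviduct replicate 1 and without uterus replicate 2 (adjusted p of up to 0.325), and Esr1 was not called (0.26 ± 0.11, adjusted p = 0.106).

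Whether the organ difference itself changed with the G2/M state was tested as an interaction in a joint fit of all 8 sums in which every library had its own term, coded as the organ difference in G2/M cells minus that in other gate cells. Of 14086 genes tested 129 (0.916%) were called, 86 above 0 and 43 below, and 74 of them by less than 1.5-fold. At an unadjusted p under 0.05 there were 1448. The calls above and below 0 were 23 and 10 with DESeq2, 188 and 74 with doublets removed, 216 and 113 with the replicate number as a term and 59 and 20 without oviduct replicate 2. They were 39 and 43 with cells of at least 10000 UMIs and 127 and 133 with no filter on low counts, so that the surplus above 0 was not kept there. Against other cells with at most 1 rule gene, an alternative added after the data had been seen, they were 56 and 44.

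Gap43, a growth-associated protein, stood at 46.9 and 47.0 CPM in the oviduct G2/M cells and 50.8 and 46.7 CPM in the uterine ones, while the other gate cells had 25.7 and 22.0 CPM in the oviduct and 55.6 and 53.0 CPM in the uterus. The organ difference of -1.23 in the other cells was -0.080 in the G2/M cells, an interaction of 1.15 ± 0.13 (adjusted p = 0.000126). Prlr differed the opposite way: in the oviduct it had 3.58 and 2.72 CPM in G2/M cells and 12.8 and 9.70 CPM in the others, and in the uterus 47.7 and 51.6 CPM in G2/M cells and 50 and 47.3 CPM in the others, an interaction of -1.84 ± 0.25 (adjusted p = 0.000683). Ccnd2 was lower in G2/M cells of both organs, at 229 and 180.4 against 529.7 and 526 CPM in the oviduct and 354 and 298 against 603 and 523 CPM in the uterus, and more so in the oviduct (-0.54 ± 0.087, adjusted p = 0.00318). Gas2l3, a cytoskeletal linker of dividing cells, was higher in G2/M cells of both organs, at 114 and 123 against 20.7 and 19.8 CPM in the oviduct and 91.4 and 81.6 against 7.11 and 7.55 CPM in the uterus (-0.98 ± 0.13, adjusted p = 0.000681). Prrx2, a homeobox gene of mesenchyme, had -0.77 ± 0.11 (adjusted p = 0.00109) and Acta2, smooth muscle actin, 0.42 ± 0.060 (adjusted p = 0.00109). These 6 genes kept their calls under every alternative run for them (12 for Prlr and 13 for each of the other 5). Hoxa10 was at 55 and 42.2 CPM in oviduct G2/M cells and 35.6 and 29.9 CPM in the others, and at 372 and 324 CPM in uterine G2/M cells and 344 and 341 CPM in the others (0.59 ± 0.10, adjusted p = 0.00342), a call lost without oviduct replicate 1 (adjusted p = 0.0601).

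Of the 129 called genes 5 were rule genes (Cenpf, Ccnb1, Cenpe, Cdc20 and Ube2c). All 5 lost their calls against other cells with at most 1 rule gene. The rule divides the gate on the counts of these genes, so that their levels in both groups are a description. Genes that rise with them, such as Cdk1 and Gas2l3, are sorted by the same division. Their interaction tests are thus not free of the selection. In the other gate cells the levels left by the rule were 5.23 and 6.23 CPM (oviduct) and 7.64 and 9.82 CPM (uterus) for Cdc20 and 8.71 and 10.3 CPM (oviduct) and 11.6 and 10.7 CPM (uterus) for Cenpe, and for Cenpf, Ccnb1 and Ube2c they are given above. Cdk1, which the rule did not use, was at 555 and 513 CPM in the oviduct and 485 and 471 CPM in the uterine G2/M cells and at 49.6 and 50.1 CPM (oviduct) and 56.6 and 66.1 CPM (uterus) in the others (0.49 ± 0.090, adjusted p = 0.00900), a call lost without oviduct replicate 1, without uterus replicate 2 and with cells of at least 10000 UMIs (adjusted p of up to 0.105). The chemokine genes Cxcl10 and Cxcl1 were called below 0, and also differed between replicate numbers: in the G2/M cells Cxcl10 was at 8.29 and 104 CPM in oviduct replicates 1 and 2 and at 41.6 and 167 CPM in uterus replicates 1 and 2, and Cxcl1 at 6.78 and 49.4 CPM (oviduct) and 8.46 and 71.3 CPM (uterus). Replicate 2 was the higher one in both organs for both genes, and in the other gate cells as well. The call of Cxcl10 was lost with DESeq2 and with rule genes at 0.2% of UMIs (adjusted p of up to 0.370), and that of Cxcl1 at 0.2% and without uterus replicate 2 (adjusted p of up to 0.151).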

How the data were processed

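The 4 libraries were 10x Genomics Chromium 3' libraries, per the labels' protocols. The deposited values are UMI counts per gene and barcode (31053 genes), without normalization by the authors. Per the file headers, Cell Ranger 6.0.1 wrote the called-cell matrices and Cell Ranger 4 the all-barcode ones. The submitters' processing notes name Cell Ranger, Seurat 4.2.3 and the build mm10. Whether intronic reads were counted is not given in the sources used here. The Pdgfra gate, the G2/M rule and the gene lists were chosen with earlier results of these data known.

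Doublets were kept in the main analysis. In the alternative, the highest Scrublet scores (scanpy 1.11.5) were removed at 0.8% per 1000 barcodes. Counts were summed per library over G2/M and over other gate cells, and the libraries are the replicates. Sums were tested in edgeR 4.0.16 (R 4.3.3) with TMM scaling, filterByExpr and quasi-likelihood F-tests with organ as the term, 2-sided; DESeq2 1.42.0, its size factors, no filter, the replicate number as a block, stricter rules, depth and each library left out were alternatives. CPM are the authors' deposited counts per 1000000 UMIs of a sum. The fits were tested on simulated data, where more calls were false than the nominal level, most of all for the interaction. Replicates of an organ differed beyond counting error (chi-square per degree of freedom 4.22 and 4.06 in G2/M cells). The p-values of the organ tests rest on the spread between 2 libraries per organ, with dispersions estimated across genes. Those of the interaction rest on the spread, between libraries, of the ratio of G2/M over other cells within each library.

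Genes named are the rule and gate genes and a fixed set, the 10 largest organ differences per direction, the 5 largest interactions and the 12 largest G2/M ratios, among genes of at least 20 CPM. Organ genes also needed levels in the G2/M cells that did not overlap between the organs. Interaction genes needed ratios of G2/M over other cells that did not overlap. Both needed an estimated free-RNA share of at most 25% in G2/M sums. The sums of the other gate cells were not screened for free RNA. Their estimated shares, found the same way, were 11.8 and 6.09% (oviduct) and 5.10 and 3.39% (uterus). Each list adds its 3 largest per direction. The choice passed over haemoglobin, ribosomal protein, mitochondrial and predicted genes. Hoxa9, Hoxb4, Hoxb9, Hoxc5, Smc2 and Ncaph were named after their values were seen. The free-RNA estimate first used haemoglobin alone and was changed to the lower of haemoglobin and myeloid genes after red cell transcripts had been seen in single cells.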

Additional observations from a re-analysis of the deposited data

Results flagged for a closer look

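The results below were picked out because the ratio of G2/M over other gate cells differed between the organs by the interaction test (log2, oviduct minus uterus). The values are edgeR fold changes, with Benjamini-Hochberg adjusted p-values over 14086 genes. Above 0 were Gap43 (1.15), Neto2 (1.10), Sncaip (1.05), Aard (0.98), Ccdc61 (0.98), Hoxa10 (0.59), Cdk1 (0.49), Acta2 (0.42) and Fn1 (0.32). Below 0 were Prlr (-1.84), Cxcl10 (-1.43), Gas2l3 (-0.98), Cxcl1 (-0.98), Prrx2 (-0.77), Ccnd2 (-0.54), Des (-0.50) and Btg2 (-0.35).

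Neto2, an auxiliary subunit of glutamate receptors, stood at 15.4 and 16 CPM in oviduct G2/M cells and 6.20 and 7.40 CPM in the other oviduct gate cells, and at 97.8 and 77.2 CPM in uterine G2/M cells and 81.7 and 73.0 CPM in the other uterine ones. In the same order Sncaip stood at 36.5 and 50 CPM, 29.5 and 30.7 CPM, 16.2 and 13.3 CPM and 23.3 and 19.5 CPM. Aard stood at 22.4 and 19.4 CPM, 8.89 and 8.72 CPM, 24.7 and 25.1 CPM and 18.6 and 21.3 CPM. Ccdc61 stood at 23.7 and 23.8 CPM, 7.90 and 7.22 CPM, 17.6 and 15.7 CPM and 10.5 and 9.91 CPM. In the oviduct all 4 genes were higher in the G2/M cells. Ccdc61 lost its call when any 1 of the 4 libraries was left out, and Aard without oviduct replicate 1 and without uterus replicate 2, and both lost it with cells of at least 10000 UMIs and with rule genes at 0.2% of UMIs. Neto2 lost it without oviduct replicate 1 and with rule genes at 0.2% of UMIs (adjusted p of up to 0.0650), and Sncaip without uterus replicate 1 (adjusted p = 0.0572). Des lost it with DESeq2, without oviduct replicate 2 and without uterus replicate 1 (adjusted p of up to 0.113). Btg2 lost it at 0.2% and without oviduct replicate 1, oviduct replicate 2 or uterus replicate 1 (up to 0.172). Fn1 lost it with DESeq2, at 0.2%, with cells of at least 10000 UMIs and without oviduct replicate 1 or uterus replicate 1 (up to 0.111). The losses of Hoxa10, Cdk1, Cxcl10 and Cxcl1 stand beside their levels above. Cdk1 and Gas2l3 rise with the rule genes, and their interaction tests are not free of the selection.

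Among the genes named here, haemoglobin and haem genes had the largest values: Hbb-bt (-8.55), Hba-a1 (-7.45), Hbb-bs (-6.75) and Alas2 (-5.35). In the G2/M cells Hbb-bs was at 18.3 and 30.6 CPM in the oviduct libraries and 112 and 3839.5 CPM in the uterine ones. In the other gate cells it went the opposite way, at 453 and 1389 CPM (oviduct) and 411 and 136 CPM (uterus), 1.71 ± 0.50 (SE, adjusted p = 0.0206). That call was lost with DESeq2, with rule genes at 0.2% of UMIs and without uterus replicate 2. In uterus replicate 2, 2 cells held over 100 haemoglobin UMIs and the largest held 12655 of 25279. In uterus replicate 1, 1 cell held 490 of 617. The interaction calls of all 4 genes were lost without oviduct replicate 2, and those of Hbb-bt, Hba-a1 and Hbb-bs with DESeq2. Hbb-bs and Alas2 also lost theirs with cells of at least 10000 UMIs. Hbb-bs lost it against other cells with at most 1 rule gene as well. Alas2 lost it at 0.2%, without oviduct replicate 1 and without uterus replicate 2. It had 0 and 3 UMIs in the oviduct G2/M cells and 2 and 40 in the uterine ones. The median G2/M cell held 0 or 1 haemoglobin UMI in every library.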

How the results depend on the processing

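No named gene that was called reversed its sign under any alternative run. Genes that the rule or the gate used are left out of the next counts. Of 101 named genes called between the organs in G2/M cells, 72 kept the call under every alternative and 28 lost it when 1 library was left out. Of 21 named interaction calls 6 were kept throughout and 14 were lost without some 1 library. DESeq2 moved the organ count in G2/M cells from 2460 to 1192 genes. The interaction count of 129 became 33 with DESeq2, 260 with no filter on low counts, 82 among cells of at least 10000 UMIs and 262 with doublets removed. With the replicate number as a block the organ count in G2/M cells was 2648, in other cells 5954 and the interaction 329, but the labels do not say that equal numbers mark the same pool, and deviations of same-numbered libraries correlated across genes at 0.0587 (G2/M) and 0.141 (other cells). The G2/M share difference of -1.38 percentage points was 0.0151 among cells of at least 10000 UMIs, an alternative added after the data had been seen. Over the 4 fits that leave out 1 library each, the organ count in G2/M cells ranged from 1690 to 2085, in other cells from 4124 to 4863 and the interaction from 79 to 126. The lone library of an organ was then assumed to vary like the others. The same omissions gave share differences of -1.97 to -0.797 points, 492 to 529 genes past 2-fold and UMI ratios of 1.36 to 1.44. The count past 2-fold was 345 with a pseudocount of 5 CPM (336 above and 9 below) and 556 against other cells with at most 1 rule gene (515 and 41). Of 136 named G2/M ratios, 37 moved by more than their SD over libraries with that pseudocount, 37 with rule genes at 0.2% of UMIs and 39 against other cells with at most 1 rule gene. With 164 to 284 G2/M cells a library, low genes are limited by counting.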

Other observations

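Promoter letters were also counted over the genes past 2-fold in all 4 libraries, as values with no test. Of 309 genes that were higher in G2/M cells and had a promoter in the RefSeq table, 157 (50.8%) held the CHR letters, 204 (66.0%) CCAAT and 108 (35.0%) both. Without the 9 rule genes these were 150 of 300 (50%), 195 (65.0%) and 101 (33.7%). Over all 27025 genes of the table the shares were 21.7%, 41.1% and 8.61%. Of 29 genes that were lower in G2/M cells, 5 (17.2%) held the CHR letters and 9 (31.0%) CCAAT. The S phase genes held CCAAT in 17 of 25 (68.0%) and the CHR letters in 4 (16%).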
